A study of Rattus norvegicus with 8 samples.

Results

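Molecular chaperones are proteins that hold, fold and refold other proteins, and the members described here are those of the cytosol and the mitochondria. They were taken from the gene table by symbol: the Hsp70, Hsp110, small heat shock protein, mitochondrial Hsp60 and Hsp10, and Hsp90a families (Hspa, Hsph, Hspb, Hspd, Hspe, Hsp90a), the DnaJ proteins of classes A, B and C, the Bag proteins and the Cct subunits. The endoplasmic reticulum genes Hspa5, Dnajb9, Dnajb11, Dnajc3 and Dnajc10 were left out, and only rows holding an annotated transcript counted, with the row of highest mean kept where a symbol had more. This gave 77 genes of the 19625 annotated rows. Of these, 60 reached 1 FPKM (fragments per kilobase of transcript, scaled to the size of the library, so a level per length) in at least 4 of the 8 libraries and were tested, and 17 did not. The symbol rule is not a sorting by location, since Hspa13, Dnajb12, Dnajb14, Dnajc1, Dnajc14, Dnajc16 and Dnajc25 encode endoplasmic reticulum proteins and Dnajc5 encodes a protein of secretory vesicles.

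Thoracic aorta of wild-type male Sprague Dawley rats, with an age of 12 weeks and a weight of 180 to 200 g in the labels, was sequenced after removal of ribosomal RNA. The nitroglycerin group (4 libraries) had received glyceryl trinitrate, an organic nitrate that releases nitric oxide and relaxes vascular smooth muscle, in 3 daily injections of 100 mg/kg under the skin over 3 days. The 4 control libraries are from rats given its vehicle, ethanol, on the same schedule. The series asks which transcripts differ in aorta made tolerant to nitroglycerin. The labels do not say that each library is its own rat, so p-values measure the spread between these libraries.

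Heat shock proteins of the Hsp70 family bind stretches of unfolded protein in a cycle driven by ATP. DnaJ proteins bring them their clients and start ATP hydrolysis, and Bag and Hsp110 proteins release the nucleotide. Hsp90 finishes the folding of kinases and hormone receptors, the small heat shock proteins hold unfolded clients without ATP, the Cct ring folds actin and tubulin, and Hspd1 with its lid Hspe1 does similar work inside mitochondria. A set of these genes is induced by heat and other protein stress through heat shock factor 1, which binds inverted repeats of a short unit, the heat shock element, in their promoters. Other members are expressed at steady levels.

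Promoter sequences are given because the tested members of the stress-inducible list varied more between libraries than most rows, as described below. The heat shock element is the sequence feature known for such genes. Of the 6 members shown, Cct4 and Hspb6 are not in that list. Their within-group SD exceeded that of 45.8% and 14.4% of rows. Hspb1, the listed member of largest spread, is not shown. The windows run from 250 bases before to 50 bases after the start of a gene in RefSeq, build GRCr8, and 62 windows matched 61 of the 77 members by symbol. An element was counted as GAANNTTC or TTCNNGAA on either strand, 2 inverted units, with overlaps allowed. A longer element has the third unit at the same spacing. Capitals mark these elements. The stretches are Hspa8 at chr8:50080286-50080486 (plus strand), Hsph1 at chr12:10427248-10427359 (plus), Dnaja1 at chr5:60638208-60638440 (plus), Hspe1 at chr9:64084247-64084294 (plus), Cct4 at chr14:101193067-101193106 (plus) and Hspb6 at chr1:94934122-94934245 (plus), each 5′ to 3′.
Hspa8: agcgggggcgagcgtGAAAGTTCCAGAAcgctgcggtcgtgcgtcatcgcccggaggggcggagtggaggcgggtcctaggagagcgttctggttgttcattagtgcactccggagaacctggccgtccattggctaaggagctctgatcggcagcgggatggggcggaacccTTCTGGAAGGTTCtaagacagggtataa
Hsph1: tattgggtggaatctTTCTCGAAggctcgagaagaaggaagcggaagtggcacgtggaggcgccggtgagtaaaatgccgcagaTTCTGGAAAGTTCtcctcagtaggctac
Dnaja1: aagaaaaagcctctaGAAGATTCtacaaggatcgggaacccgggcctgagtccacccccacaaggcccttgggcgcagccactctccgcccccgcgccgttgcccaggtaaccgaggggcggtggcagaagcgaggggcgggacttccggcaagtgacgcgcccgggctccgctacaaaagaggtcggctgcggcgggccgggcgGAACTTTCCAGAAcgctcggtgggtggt
Hspe1: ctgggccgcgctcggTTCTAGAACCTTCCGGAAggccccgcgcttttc
Cct4: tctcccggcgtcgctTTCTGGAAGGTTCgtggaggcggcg
Hspb6: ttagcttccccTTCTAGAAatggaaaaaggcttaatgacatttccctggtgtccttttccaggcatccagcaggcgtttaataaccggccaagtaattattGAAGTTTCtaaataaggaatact

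The Hspa8 window held 4 elements of 2 units and 2 of 3 units. The Hspe1 stretch is also the promoter of Hspd1, which is read from the opposite strand: the starts used for the 2 windows lie 290 bases apart and the windows share 211 bases. In the Cct4 window the element lay 25 to 37 bases after the start, and Hspb6 had 2 separate elements of 2 units and none of 3. Elements of 2 units stood in 30.6% of the 62 member windows, 15.9% of all 33469 windows and 11.1% of windows of tested symbols. Elements of 3 units stood in 6 member windows, 9.68%, and in 0.798% and 0.498% of those windows. Those 6 belong to Hspa8, Hsph1, Dnaja1, Hspd1, Hspe1 and Cct4, of which all but Cct4 are in the list of stress-inducible members used below. Hspd1 and Hspe1 share 1 stretch, which is counted in both windows. Elements of 3 units stood in 5 of 11 windows of listed members (45.5%) and in 1 of 51 windows of the others (1.96%). For elements of 2 units the shares were 72.7% and 21.6%. A match describes the letters in the window and is not a binding site.

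Aligned sequence was 7.48 to 8.86 Gb in the control libraries and 6.77 to 8.39 Gb in the nitroglycerin libraries. The smooth muscle gene Acta2 read 1762 to 2401 FPKM in controls and 1061 to 2359 FPKM in nitroglycerin libraries, and 5 of 6 heart muscle markers stayed under 1 FPKM everywhere. The remaining heart muscle marker is described below with the muscle genes. Genes in general read higher after nitroglycerin: over all 12977 tested rows the median log2 difference was 0.30, and median-of-ratios rescaling, which divides each library by a common factor (0.742 to 0.996 in controls, 1.07 to 1.22 after nitroglycerin), brought it to 0.01. Counts, medians and calls are therefore given under both scalings, and the FPKM of single libraries are as deposited unless called rescaled. Of the marker lists for other cells, the endothelial genes Esam and Eng (2 of 9 tested) and the macrophage gene Cd163 (1 of 10) rose as deposited (limma adjusted p = 0.0414, 0.0492 and 0.0492). Of all rows 1.29% were called higher on that scale, and none of these genes rose after rescaling. Fibroblast markers summed to 1698 to 2469 FPKM in controls and 1403 to 1526 FPKM after nitroglycerin. Of the 5 tested, 0 were called, and 3 read higher and 2 lower, under either scaling. The extraction text in the labels mentions adipose, and adipocyte markers summed to 137.9 FPKM in nitroglycerin replicate 1 and to 17.8 to 33.9 FPKM in the other 7 libraries. In bulk aorta, fewer cells of a type and less RNA per cell cannot be told apart.

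No member passed the test in the FPKM as deposited. By limma on log2(FPKM + 1), with Benjamini-Hochberg adjustment over all tested rows, 0 of the 60 tested members had an adjusted p under 0.05, where 1.29% of all rows were called higher and 0.0616% lower. At an unadjusted p under 0.05, 19 members were higher and 2 lower, against 34.1% and 1.02% of all rows. The groups did not overlap in 16 members that read higher and 1 that read lower, against 24.2% and 0.478% of all rows. Those 16 are 26.7% of the tested members. The median log2 difference of the tested members was 0.31, beside 0.30 for all rows, and 50 of 60 (83.3%) lay above 0, beside 86.6% of all rows.

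After rescaling, 1 member fell and none rose: Hspb6, a small heat shock protein of smooth muscle (limma adjusted p = 0.0351). Of all rows 0.0308% rose and 0.1% fell on that scale. Unadjusted, 0 members were higher and 3 lower (Hspb6, Hspb7 and Hspa2), against 5.5% and 6.44% of all rows. The groups did not overlap in 0 members on the higher side and 1 on the lower side, against 3.77% and 4.47% of rows. The median of the tested members was -0.02, beside 0.01 for all rows, and 26 of 60 (43.3%) lay above 0, beside 52.4% of all rows. The plot of log2 differences shows the small heat shock proteins spread widest, and the Cct and mitochondrial members in a narrow band at the median row.

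**Figure D1:**
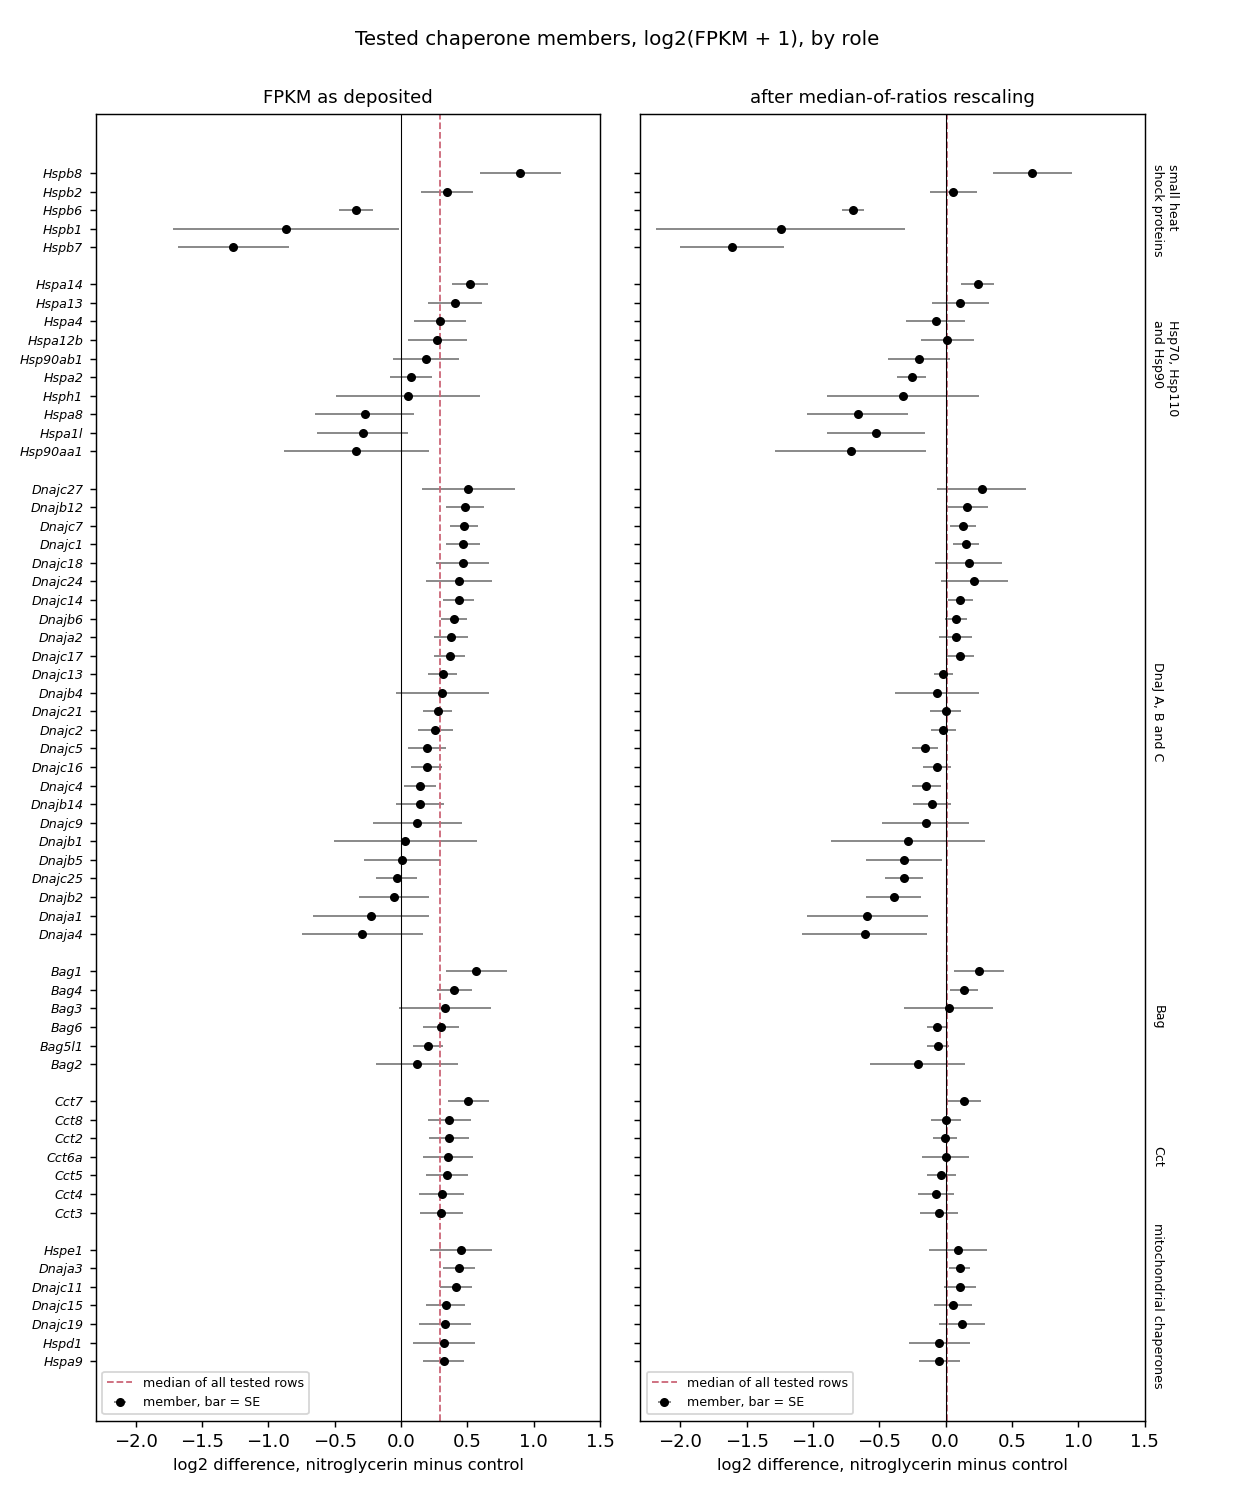
Log2 difference (nitroglycerin minus control, log2(FPKM + 1)) of the 60 tested members by role, as deposited (left) and after rescaling (right). Points are limma estimates with their SE as bars, and the dashed line is the median of all 12977 tested rows (0.30 left, 0.01 right). Hspb7 and Hspb1 lie lowest and Hspb8 highest in both panels.

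Small heat shock proteins form oligomers that keep unfolded proteins soluble, and several are muscle proteins. Hspb6 (Hsp20), which is phosphorylated by cyclic-nucleotide-dependent kinases when vascular smooth muscle relaxes, read 13.1, 18.01, 16.7 and 13.8 FPKM in the control libraries 1 to 4. It read 11.7, 11.6, 11.8 and 12.4 FPKM in the nitroglycerin libraries. All 4 nitroglycerin values lay below all 4 control values, and they were close to each other (SD 0.377 FPKM, n = 4, against 2.33 in controls). As deposited this was a log2 difference of -0.34 (SE 0.13), which did not pass (limma adjusted p = 0.108). On the rescaled FPKM the groups stood at 17.4 ± 1.43 and 10.3 ± 0.399 (mean ± SD, n = 4 per group), or -0.70 in log2 (SE 0.08, with an adjusted p from limma of 0.0351). That call was lost when any library other than nitroglycerin replicate 2 was left out (adjusted p = 0.0536 to 0.117).

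Hspb7, a small heat shock protein of heart and other muscle that binds filaments, read 9.67, 29.8, 19.8 and 21.5 FPKM in controls and 5.51, 7.73, 15.8 and 3.84 FPKM after nitroglycerin. Control replicate 1 and nitroglycerin replicate 3 overlapped. The log2 difference of -1.26 (SE 0.42) was the lowest of the tested members and did not pass (limma adjusted p = 0.0856, and 0.174 after rescaling, where it was -1.61). Hspb8 (Hsp22), which works with Bag3 in the removal of damaged proteins, read 0.936, 3.49, 0.606 and 1.01 FPKM in controls and 3.68, 3.34, 4.08 and 2.29 FPKM after nitroglycerin. The groups overlapped through control replicate 2, the only control above 1.01 FPKM. Its log2 difference of 0.90 (SE 0.30, limma adjusted p = 0.0882) passed without control replicate 2, where it was 1.22 (adjusted p = 0.0468). Hspb8 did not pass after rescaling (0.65, adjusted p = 0.441).

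Hspb1 (Hsp27), an abundant actin-binding member, read 268, 86.9, 54.3 and 82.5 FPKM in controls and 128, 129, 65.4 and 7.93 FPKM after nitroglycerin. Control replicate 1 stood far above the other controls and nitroglycerin replicate 4 far below every other library. Its within-group SD on the log2 scale exceeded that of 99.2% of all tested rows, and the difference of -0.87 (SE 0.85) did not pass (limma adjusted p = 0.465, and 0.640 after rescaling, where it was -1.24). Hspb2, which was chosen for mention after its values were seen, stood at 2.38 ± 0.531 and 3.36 ± 1.08 FPKM. Cryab, the small heat shock protein that the symbol rule does not reach, read 4.81 to 7.70 FPKM in controls and 2.49 to 15.1 FPKM after nitroglycerin. Hspb9 and Hspb11 were under the filter, at 0.125 to 0.752 and 0.504 to 1.49 FPKM.

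Muscle genes were read beside Hspb6 and Hspb7. Ckm, the muscle creatine kinase, read 9.78 ± 0.825 and 5.06 ± 1.35 FPKM as deposited and fell under both scalings, by 0.85 in log2 as deposited and 1.19 rescaled (limma adjusted p = 0.0492 and 0.0351). It was the only call of 6 tested skeletal muscle markers, against 0.0616% of all rows called lower as deposited and 0.1% rescaled. The median of the 6 was -0.04 as deposited and -0.30 rescaled. Of these, 4 read lower and 2 higher as deposited and 5 lower and 1 higher after rescaling, and Mybpc2, named after its values were seen, read higher under both (0.38 and 0.16). Of 6 heart muscle markers 1 was tested. It read lower without passing (log2 difference -1.058 as deposited and -1.275 rescaled, limma adjusted p = 0.157 and 0.372). Unadjusted it was lower only after rescaling, against 6.44% of all rows. The 6 summed to 1.56 to 9.61 FPKM in controls and 0.519 to 2.16 FPKM after nitroglycerin. Of 8 smooth muscle markers tested, 0 passed under either scaling. As deposited, 5 read lower and 3 higher with a median log2 difference of -0.27. Unadjusted 2 were lower and 1 higher, against 1.02% and 34.1% of all rows. After rescaling, where Hspb6 was called, 7 read lower and 1 higher with a median of -0.64. Unadjusted 4 were then lower and 1 higher, against 6.44% and 5.5% of all rows. On that scale the groups did not overlap in 3 of the 8 markers, all lower (Myl9, Myh11 and Cnn1), against 4.47% of all rows. Myl9, a myosin light chain, stood at 152 ± 13.6 and 92.7 ± 27.6 FPKM with no overlap (limma adjusted p = 0.0665, and 0.0949 after rescaling), while Lmod1 read higher, at 8.99 to 11.7 against 12.6 to 23.5 FPKM. The summed level of the smooth muscle markers was 2204 to 2883 FPKM in controls and 1366 to 2760 FPKM after nitroglycerin. The part of muscle content in the values of Hspb6 and Hspb7 was not tested.

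**Figure D2:**
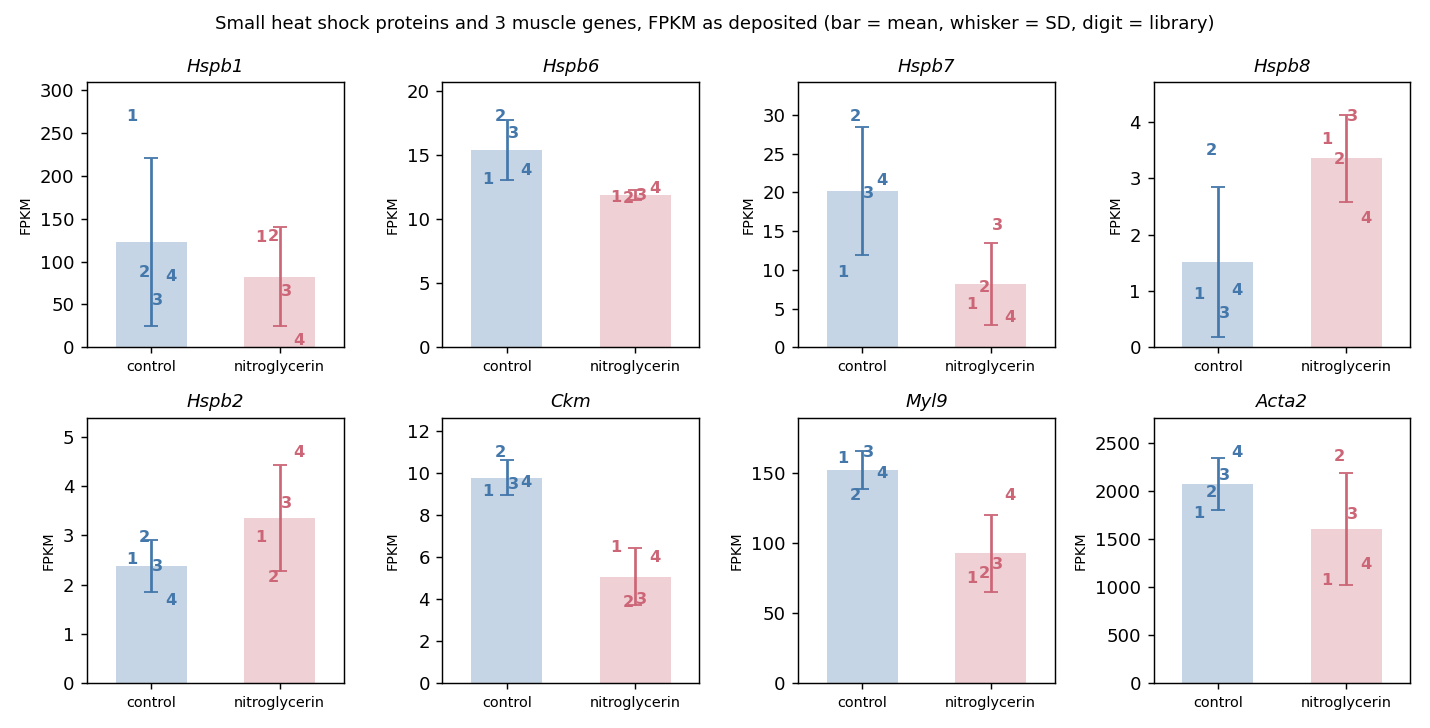
FPKM as deposited of the 5 tested small heat shock proteins and of the muscle genes Ckm, Myl9 and Acta2 in control and nitroglycerin libraries. Bars are means and whiskers SD (n = 4 per group), and digits are libraries. Hspb6, Ckm and Myl9 do not overlap between the groups, and Hspb1 ranges from 7.93 to 268 FPKM.

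The stress-inducible list has 14 members: Hspa1a, Hspa1b, Hspa1l, Hspa8, Hsph1, Hsp90aa1, Hsp90ab1, Hspb1, Hspd1, Hspe1, Dnaja1, Dnajb1, Dnajb4 and Bag3. The name does not describe all of them, since Hspa8 and Hsp90ab1 are known as constitutively expressed and Hspa1l is best known from testis. Of the 12 that were tested, 0 were called under either scaling, and 0 had an unadjusted p under 0.05 under either. The median of their log2 differences, 0.04 as deposited and -0.30 rescaled, stands beside 0.30 and 0.01 for all rows. The libraries of a group differed more in these genes than in most: the median within-group SD was 0.60 on the log2 scale, beside 0.24 over all rows. All 12 lay above the median SD of all rows, and 5 of them were in the top 10%. Of the 48 other tested members, 18 lay above that median. On the rescaled values the medians were 0.60 for the list and 0.21 over all rows, all 12 lay above the median row, and 19 of the 48 others did.

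**Figure D3:**
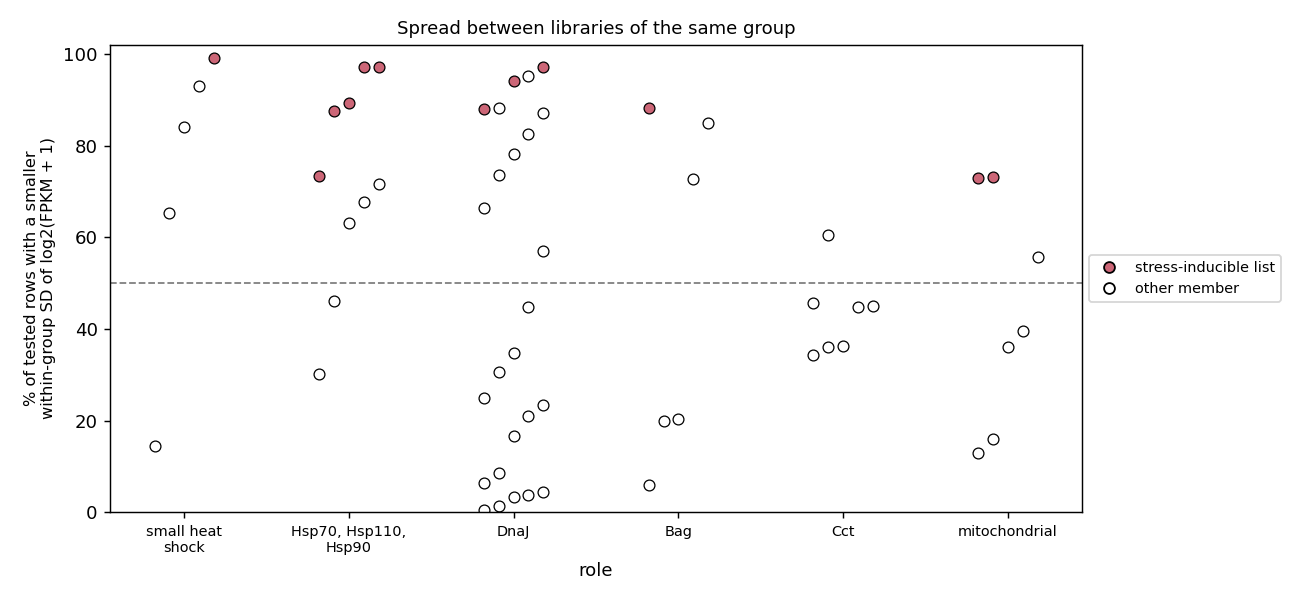
Share of all 12977 tested rows with a smaller within-group SD of log2(FPKM + 1) than the member, for the 60 tested members by role. Filled points are the 12 tested stress-inducible members, all above the dashed 50% line, and open points are the other members.

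Hspa8, the constitutive Hsp70 of the cytosol whose promoter opens the sequences above, had the highest mean of the members over the 8 libraries, at 151, 315, 197 and 173 FPKM in controls and 127, 307, 200.3 and 96.6 FPKM after nitroglycerin. Replicate 2 was highest in both groups and the groups overlapped (log2 difference -0.27, SE 0.37, limma adjusted p = 0.598; -0.66 and 0.535 after rescaling). Reads of Hspa8 can be split among copies, since 6 annotated rows carry its description. One of these, LOC680121, read 49.5 FPKM in control replicate 4 and 32.8 FPKM in nitroglycerin replicate 1 and was listed at 0 in the other 6 libraries. Summed, the 6 rows stood at 313 ± 103 FPKM in controls and 274 ± 128 FPKM after nitroglycerin.

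Hsph1, the Hsp110 that recycles Hsp70, read 20.7, 42.0, 33.7 and 36.2 FPKM in controls and 17.0, 106, 40.04 and 16.6 FPKM after nitroglycerin. The nitroglycerin group held both the highest and the lowest value, and leaving out nitroglycerin replicate 2 turned its log2 difference from 0.05 (limma adjusted p = 0.949) to -0.50 (adjusted p = 0.32), and it was -0.32 after rescaling (adjusted p = 0.865). Hsp90aa1, the inducible Hsp90, read 34.6, 76.8, 51.5 and 67.3 FPKM in controls and 22.1, 121, 64.1 and 20.3 FPKM after nitroglycerin. The pattern over the nitroglycerin libraries was that of Hsph1, with replicate 2 high and replicates 1 and 4 low (log2 difference -0.34, SE 0.55, limma adjusted p = 0.664; -0.71 and 0.660 after rescaling). Its near copy LOC103692716 read 17.5 to 105 FPKM, and the summed rows stood at 107 ± 33.8 and 115 ± 89.8 FPKM.

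Hsp90ab1, the constitutive Hsp90, read 127, 223, 173 and 175 FPKM in controls and 162, 282, 207 and 153 FPKM after nitroglycerin (limma adjusted p = 0.585, and 0.782 after rescaling). It varied less than its inducible partner. The ratio of Hsp90aa1 to Hsp90ab1 within a library, which does not depend on scaling, was 0.273, 0.344, 0.298 and 0.385 in controls. In the nitroglycerin libraries it was 0.137, 0.429, 0.310 and 0.133, so replicates 1 and 4 lay below every control and replicate 2 above. That ratio leaves out the near copy of Hsp90aa1. With the copy summed, Hsp90aa1 read 65.5, 142, 94.7 and 125 FPKM in controls. The sums after nitroglycerin were 46.0, 225, 151 and 37.8 FPKM, so replicates 2 and 3 both lay above every control. A ratio of the summed rows was not computed.

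Dnaja1, a DnaJ partner of Hsp70 in the cytosol, read 16.4, 37.4, 13.9 and 10.6 FPKM in controls and 12.9, 31.8, 12.0 and 9.30 FPKM after nitroglycerin. Replicate 2 of each group was again high (log2 difference -0.23, SE 0.44, limma adjusted p = 0.714; -0.59 and 0.651 after rescaling). Hspa1l, a Hsp70 best known from testis, read 2.88, 3.502, 1.20 and 1.48 FPKM in controls and 1.21, 3.56, 1.66 and 0.594 FPKM after nitroglycerin. Across the 12 tested stress-inducible members, nitroglycerin replicate 2 held the highest value in 6 and nitroglycerin replicate 4 the lowest in 6 as deposited, and in 5 and 8 after rescaling. Dnaja4, chosen for mention after its values were seen, was also highest in nitroglycerin replicate 2, with 15.01 FPKM against 1.997 and 3.63 in replicates 1 and 4.

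Dnajb1 and Bag3 had another order. Dnajb1 (Hsp40), the J-protein that recovers heat-damaged proteins with Hsp70, read 8.74, 9.22, 2.52 and 2.12 FPKM in controls and 14.3, 3.56, 2.75 and 3.58 FPKM after nitroglycerin. Bag3 read 2.95, 7.44, 3.21 and 2.06 FPKM in controls and 8.92, 3.53, 3.90 and 3.84 FPKM after nitroglycerin. Nitroglycerin replicate 1 was highest in both genes and control replicate 2 the highest control (limma adjusted p = 0.966 for Dnajb1 and 0.494 for Bag3). Dnajb4, a muscle-expressed relative of Dnajb1, read 16.7, 42.8, 13.9 and 20.5 FPKM in controls and 39.1, 17.9, 28.7 and 25.1 FPKM after nitroglycerin, with the same 2 libraries on top (adjusted p = 0.523). The ratio of Dnajb1 to Dnaja1 was 0.290 ± 0.164 in controls and 0.458 ± 0.446 after nitroglycerin, where replicate 1 alone stood at 1.11.

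Immediate early genes, which are induced rapidly by many stimuli, were high in some of the same libraries. Egr1 read 0.412, 2.57, 0.278 and 1.02 FPKM in controls and 11.6, 0.570, 6.87 and 1.34 FPKM after nitroglycerin. Jun was listed at 0 in control replicate 1 and read 31.2 to 39.1 FPKM in the other controls and 29.4 to 100.6 FPKM after nitroglycerin. Of the 7 tested immediate early genes, 5 were highest in nitroglycerin replicate 1 under either scaling, and 0 were called or had an unadjusted p under 0.05 in either direction (median log2 difference 0.92 as deposited and 0.74 rescaled, limma adjusted p = 0.206 to 0.831 as deposited). Their summed level was 24.1 to 91.8 FPKM in controls and 38.5 to 231 FPKM after nitroglycerin. Nitroglycerin replicate 1 was also the library with high adipocyte markers. The part of these genes' library differences in Dnajb1, Bag3 and Dnajb4 was not tested.

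**Figure D4:**
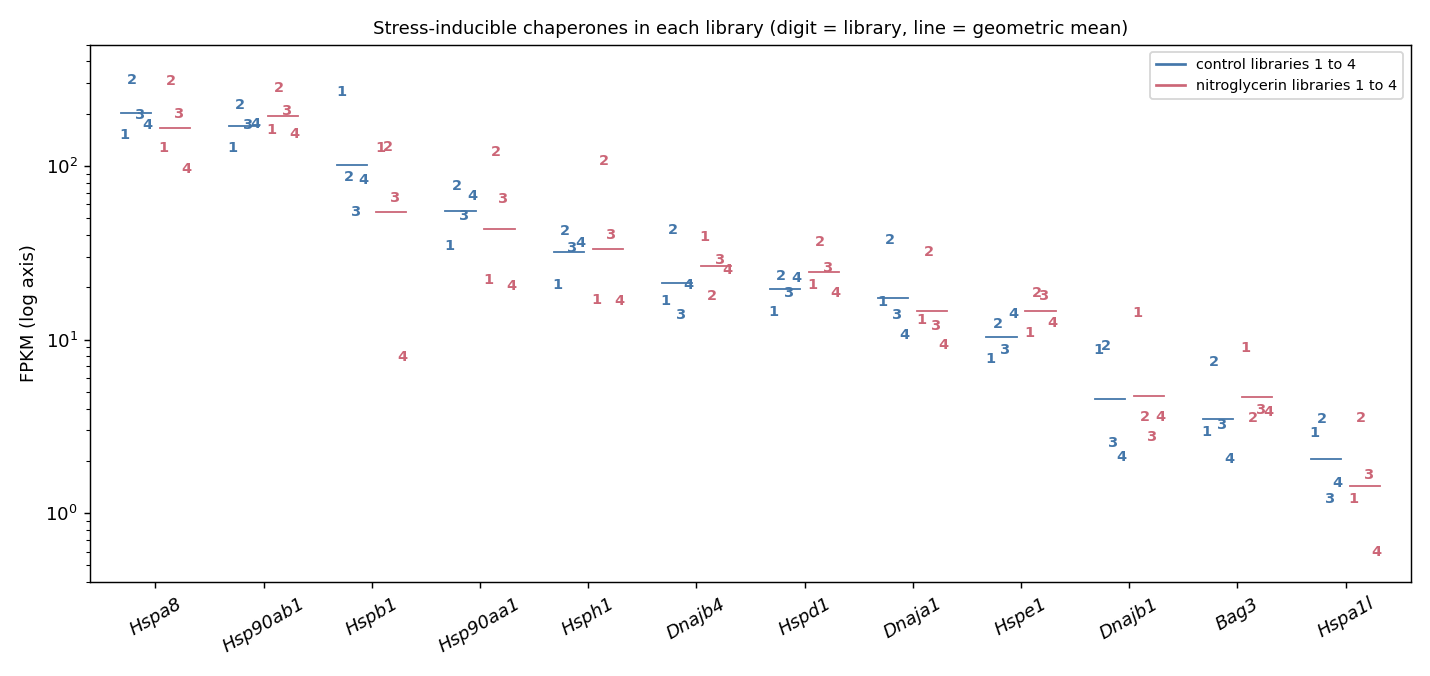
FPKM (log axis) of the 12 tested stress-inducible members in each library, with control libraries on the left and nitroglycerin libraries on the right of each gene. Digits are libraries and lines geometric means. The groups overlap in all 12 genes, and nitroglycerin library 2 stands highest in Hsph1 and Hsp90aa1 while library 1 stands highest in Dnajb1 and Bag3.

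Hspa1a and Hspa1b, the stress-induced Hsp70 pair, could not be tested. Hspa1b read 221 FPKM in control replicate 1, 67.4 in nitroglycerin replicate 1 and 88.9 in nitroglycerin replicate 3, and was listed at 0 in the other 5 libraries. Hspa1a was listed at 0, or at a value that rounds to 0, in all 8. The pair are near-identical copies, and a listed 0 can be a failed estimate, so no fold is given. Where Hspa1b was not 0, the pair reached 1.46, 0.531 and 0.444 times the level of the main Hspa8 row, without the copies of Hspa8.

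Other Hsp70 relatives were read next. Hspa4, an Hsp110-family nucleotide exchange factor, stood at 17.9 ± 2.40 FPKM in controls and 22.6 ± 6.16 FPKM after nitroglycerin. Hspa14, which works with Dnajc2 at the ribosome, read 1.66, 1.502, 2.16 and 2.21 FPKM in controls and 3.13, 2.43, 3.65 and 3.36 FPKM after nitroglycerin. Its groups did not overlap as deposited but overlapped after rescaling. The log2 difference of 0.52 (SE 0.14) had a limma adjusted p of 0.0639, and of 0.487 on the rescaled values. Hspa13, of the endoplasmic reticulum, stood at 2.68 ± 0.487 and 3.99 ± 1.40 FPKM. Hspa2, best known from male germ cells, read 4.54 to 7.67 FPKM in controls and 5.52 to 7.75 FPKM after nitroglycerin, and after rescaling its log2 difference was -0.26 (limma adjusted p = 0.405). Hspa12b read 1.38 to 3.495 FPKM over the 8 libraries, and Hspa4l and Hspa12a were under 1 FPKM everywhere.

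The members grouped by symbol as mitochondrial moved in a narrow range. All 7 tested read higher as deposited, by 0.32 to 0.45 on the log2 scale with a median of 0.34. Of the 7, 0 passed (limma adjusted p = 0.0672 to 0.326). At an unadjusted p under 0.05, 3 were higher, against 34.1% of all rows. After rescaling the differences of the 7 ran from -0.05 to 0.13 with a median of 0.10. Hspd1 (Hsp60), the folding chamber, read 14.4, 23.3, 18.6 and 22.7 FPKM in controls and 20.6, 36.7, 25.8 and 18.7 FPKM after nitroglycerin. Hspe1 (Hsp10), its lid, read 7.71, 12.3, 8.66 and 14.1 FPKM in controls and 10.9, 18.6, 17.8 and 12.5 FPKM after nitroglycerin. Nitroglycerin replicate 2 was highest in both genes of this shared promoter, and the ratio of Hspd1 to Hspe1 stayed between 1.45 and 2.16 (1.88 ± 0.220 in controls and 1.70 ± 0.272 after nitroglycerin).

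Hspa9 (mortalin), the Hsp70 that pulls proteins into the matrix, stood at 15.1 ± 1.303 and 19.3 ± 3.63 FPKM. Dnaja3, its J-protein, read 3.75, 5.05, 4.88 and 5.10 FPKM in controls and 7.16, 5.98, 7.16 and 6.40 FPKM after nitroglycerin. The groups did not overlap as deposited, but the difference of 0.43 (SE 0.12) did not pass (limma adjusted p = 0.0672) and was 0.11 after rescaling. Dnajc11, of the membrane-shaping complex, stood at 3.14 ± 0.566 and 4.49 ± 0.389 FPKM, and Dnajc15, of the import motor, at 2.16 ± 0.141 and 3.05 ± 0.845 FPKM. Dnajc15 also did not overlap as deposited, with a control maximum of 2.25 FPKM and a nitroglycerin minimum of 2.252 FPKM. Dnaja3 and Dnajc15 overlapped after rescaling, and 24.2% of all rows did not overlap on the higher side as deposited. Dnajc19, of the same motor, read 0.611 to 1.19 FPKM in controls and 0.934 to 2.12 FPKM after nitroglycerin. Dnajc30 was listed at 2.75 FPKM in control replicate 2 and at 0 in all other libraries.

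The Cct genes encode subunits of the ring that folds actin and tubulin. All 7 tested Cct members read higher after nitroglycerin as deposited, by 0.30 to 0.51 on the log2 scale, and 0 passed (limma adjusted p = 0.0731 to 0.215). At an unadjusted p under 0.05, 2 were higher, against 34.1% of all rows. After rescaling the differences ran from -0.07 to 0.14, with a median of -0.004, so the direction of single subunits depends on the scaling. Tcp1, a ring subunit that the symbol rule does not reach, is counted below with the co-chaperones. It read 13.9 to 21.5 FPKM in controls and 18.5 to 20.7 FPKM after nitroglycerin. Its log2 difference lay below both ranges, at 0.19 as deposited and -0.18 after rescaling (limma adjusted p = 0.353 and 0.546). Cct7 read 14.02, 19.5, 17.9 and 15.4 FPKM in controls and 21.2, 27.3, 27.0 and 21.2 FPKM after nitroglycerin. Cct7 and Cct2 did not overlap between the groups as deposited, a state found on the higher side in 24.2% of all rows. Cct5 was the most abundant subunit, at 38.6 ± 6.20 and 49.0 ± 5.36 FPKM. Cct4, Cct2 and Cct8 stood at 31.0 ± 5.89, 15.4 ± 3.04 and 12.7 ± 2.55 FPKM in controls and at 38.3 ± 4.71, 19.8 ± 0.729 and 16.4 ± 1.47 FPKM after nitroglycerin.

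Control replicate 1 was the lowest library in all 7 tested Cct members as deposited, and it was also the library with the lowest rescaling factor. After rescaling it was lowest in 0 of the 7, and nitroglycerin replicate 4 was lowest in 5. Over the 60 tested members control replicate 1 held the lowest value in 30 as deposited and in 3 after rescaling. The Cct members summed to 104 to 158 FPKM in controls and 155 to 187 FPKM after nitroglycerin. Cct6b and Cct8l1 were under 1 FPKM in every library. Cct4 has a 3-unit element in its window, and its within-group SD exceeded that of 45.8% of rows. For the other members with such an element the share was 97.2% (Hsph1), 94.15% (Dnaja1), 89.2% (Hspa8), 73.04% (Hspd1) and 72.95% (Hspe1). High shares also stood without one. Among tested members with a window and no 3-unit element, the share ran from 0.57% (Dnajb6) to 99.2% (Hspb1). With no element of either length it ran from 1.35% (Dnajc7) to 95.07% (Dnaja4).

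**Figure D5:**
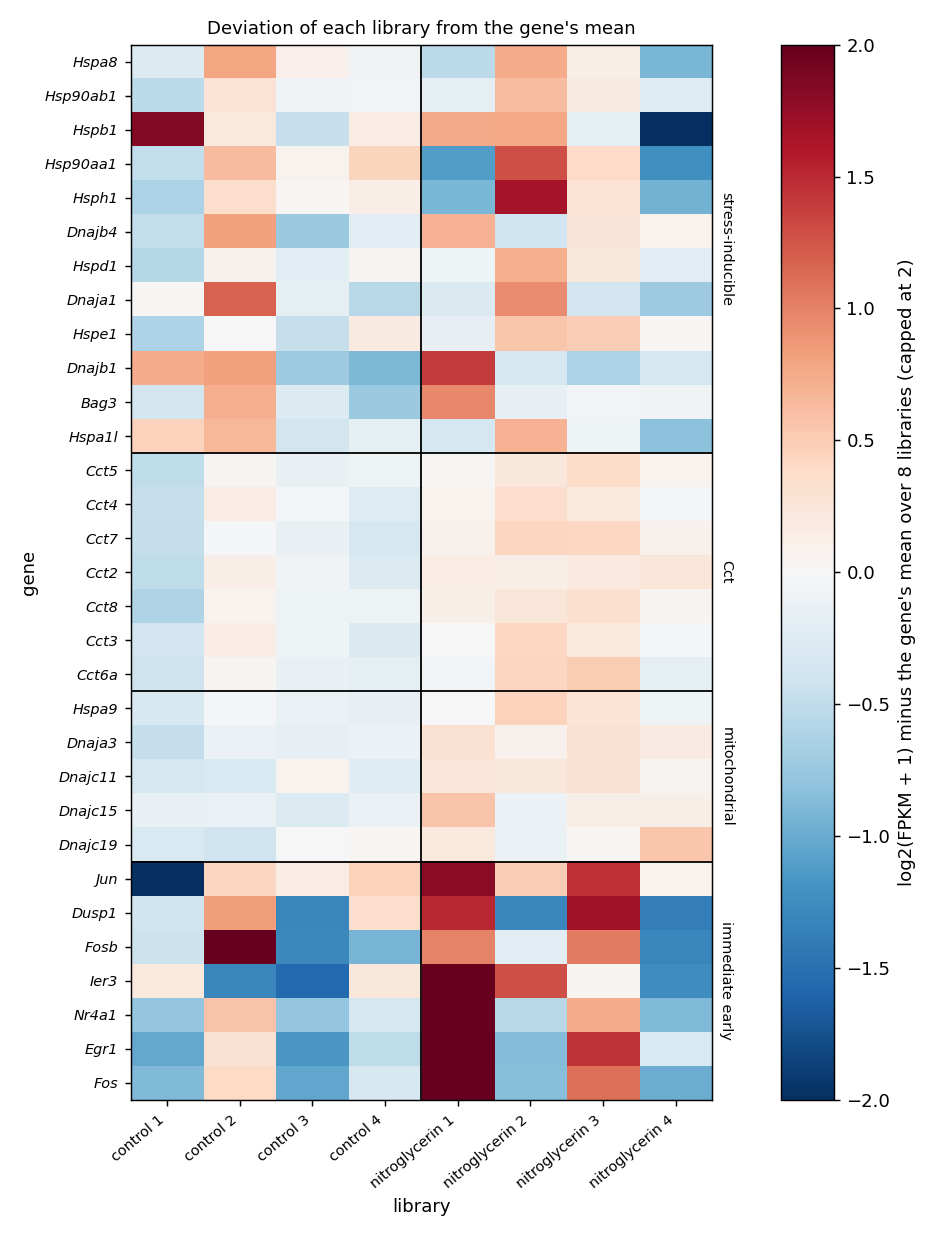
Deviation of each library from the gene's mean over the 8 libraries, in log2(FPKM + 1) as deposited and capped at 2, for the stress-inducible, Cct and other mitochondrial members and the 7 tested immediate early genes. Nitroglycerin replicate 2 is high and replicate 4 low across Hspa8, Hsp90aa1 and Hsph1, control replicate 1 is lowest in all 7 Cct rows (in 0 of 7 after rescaling), and nitroglycerin replicate 1 is highest in 5 immediate early genes.

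The DnaJ class is the largest among the members, with 32 outside the group listed as mitochondrial, of which 25 were tested. That grouping went by symbol and is not a full sorting by location. As deposited, 10 of the 25 were higher and 0 lower at an unadjusted p under 0.05, against 34.1% and 1.02% of all rows. The groups did not overlap in 9, or 36%, all higher after nitroglycerin, against 24.2% of all rows. After rescaling both counts were 0. Their median log2 difference was 0.28, beside 0.30 for all rows, with a range from -0.29 (Dnaja4) to 0.51 (Dnajc27), and -0.02 after rescaling. Dnajc7, which holds clients between Hsp70 and Hsp90, had the lowest p of the members as deposited. It read 5.91, 6.45, 5.50 and 5.55 FPKM in controls and 9.18, 7.81, 8.74 and 8.28 FPKM after nitroglycerin. The log2 difference was 0.47 with SE 0.10 (limma adjusted p = 0.0573). On the rescaled values it was 0.13 (adjusted p = 0.639).

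Dnajb6, which keeps aggregation-prone proteins soluble, read 3.57, 3.83, 4.28 and 3.91 FPKM in controls and 5.69, 5.27, 5.13 and 5.69 FPKM after nitroglycerin. It was among the steadiest rows, with a within-group SD above that of 0.57% of rows, and its difference of 0.40 (SE 0.10, limma adjusted p = 0.0609) was 0.08 after rescaling. Dnajc14, an endoplasmic reticulum membrane protein, stood at 4.04 ± 0.292 and 5.84 ± 0.817 FPKM (limma adjusted p = 0.0639). Dnajc5, the cysteine string protein of vesicles, stood at 9.05 ± 1.495 and 10.4 ± 1.03 FPKM, with the groups overlapping. Among the 7 untested DnaJ members, Dnajb13, Dnajc6, Dnajc28 and Dnajb7 were under 1 FPKM in every library, and Dnajb3, Dnajc12 and Dnajc22 reached at most 1.09, 1.45 and 1.61 FPKM.

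Bag proteins release nucleotide from Hsp70 and link it to degradation. All 6 tested read higher as deposited, by 0.12 to 0.57, with a median of 0.31, which became -0.02 after rescaling. Of the 6, 0 were called as deposited (limma adjusted p = 0.084 to 0.787). At an unadjusted p under 0.05, 2 were higher, against 34.1% of all rows. Bag6, a quality-control factor for membrane proteins, read 9.62, 13.2, 12.3 and 13.1 FPKM in controls and 15.8, 13.3, 16.1 and 14.8 FPKM after nitroglycerin. Bag1 stood at 3.62 ± 1.14 and 5.91 ± 1.97 FPKM, Bag2 at 5.84 ± 1.93 and 6.66 ± 3.10 FPKM, and Bag4 at 1.61 ± 0.116 and 2.48 ± 0.495 FPKM. Bag6 and Bag4 did not overlap between the groups as deposited, a state found on the higher side in 24.2% of all rows. Both overlapped after rescaling. Bag5, untested, read 2.37 and 1.83 FPKM in control replicates 2 and 3, 1.98 in nitroglycerin replicate 2 and at most 0.433 elsewhere, and RefSeq gives Bag5l1 as another name of it, so its reads may lie in 2 rows.

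Other genes of the chaperone network were read from the same fit. Of 24 tested heat shock factors and co-chaperones outside the symbol rule, 0 passed under either scaling. Unadjusted, 8 were higher and 0 lower as deposited, against 34.1% and 1.02% of all rows, and the median was 0.29. After rescaling 1 was higher and 2 lower, against 5.5% and 6.44% of all rows. Ptges3 (p23), a co-chaperone of Hsp90, averaged 4.76 ± 0.885 FPKM in controls and 7.76 ± 0.695 FPKM after nitroglycerin (limma adjusted p = 0.0573, and 0.271 after rescaling), and Sgta 9.88 ± 1.199 and 14.03 ± 1.47 FPKM (adjusted p = 0.0669, and 0.642 after rescaling). Hsbp1, a small protein that binds heat shock factor 1, read 28.0, 37.6, 29.4 and 27.7 FPKM in controls. After nitroglycerin it read 7.67 and 6.99 FPKM in replicates 1 and 2 and 32.8 and 37.6 FPKM in replicates 3 and 4 (limma adjusted p = 0.25). Chordc1, another Hsp90 co-chaperone, stood at 2.61 ± 1.02 and 1.91 ± 0.323 FPKM. Hsf1, named after its values were seen, read 4.05 to 5.76 FPKM in controls and 5.69 to 8.36 FPKM after nitroglycerin (limma adjusted p = 0.0841).

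In 3 other lists 1 gene each rose as deposited, where 1.29% of all rows were called higher. Pfdn6, a prefoldin subunit that hands clients to the Cct ring, rose from 3.35 ± 0.485 to 5.80 ± 0.624 FPKM (limma adjusted p = 0.0492), the only call of 11 tested. Clpp, a mitochondrial protease, rose from 3.46 ± 0.186 to 5.86 ± 0.879 FPKM (adjusted p = 0.0492), the only call of 15. Creld2, an endoplasmic reticulum stress protein, rose from 1.98 ± 0.377 to 4.27 ± 0.808 FPKM (adjusted p = 0.0492), the only call of 17 endoplasmic reticulum chaperones. None of the 3 passed after rescaling (adjusted p = 0.26, 0.284 and 0.236). The medians of these lists were 0.31, 0.40 and 0.35 as deposited and 0.04, 0.10 and -0.02 after rescaling. Unadjusted, 1, 12 and 7 of their genes were higher as deposited, against 34.1% of all rows, and 0 were lower, against 1.02%. The groups did not overlap in 1, 8 and 7 genes, all higher, against 24.2% of rows. After rescaling 1, 2 and 2 were higher unadjusted and 1, 0 and 1 lower, against 5.5% and 6.44% of rows. On that scale 6, 12 and 8 read above 0, against 52.4% of rows. Of 38 tested proteasome subunits, 0 passed under either scaling. As deposited 25 were higher at an unadjusted p under 0.05, against 34.1% of all rows, and all 38 read higher with a median of 0.39, against 86.6% of rows above 0. After rescaling 4 were higher unadjusted, against 5.5% of rows, and 24 of 38 read higher (63.2%, against 52.4%) with a median of 0.05. Psmb9 and Psmc4 had the lowest p as deposited (limma adjusted p = 0.0581 and 0.0589).

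Assembled long non-coding transcripts were listed at 3 members. One antisense to Dnaja1 was listed at 0.718 FPKM in control replicate 2, 1.57 and 0.844 FPKM in nitroglycerin replicates 1 and 3, and 0 in the other 5 libraries. Those in introns of Dnajc1 and Dnajc19 read 0.661 to 1.73 FPKM and 0 to 3.49 FPKM over the 8 libraries.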

How the data were processed

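Rat thoracic aorta was sequenced in 4 control and 4 nitroglycerin libraries. Per the submitters' processing notes, HISAT2 2.0, StringTie 1.3.0 and Bowtie 0.12.2 were used with the builds Rnor_6.0 and mm8, whose roles are not given. The deposited gene table holds FPKM per row and library, per the file headers, and the deposited table of 4686 lncRNA transcripts holds FPKM and coverage per base (signal). Coverage divided by FPKM had 1 value per library, which gives the aligned sequence in gigabases. Read counts were not analysed here, so no counting intervals are given.

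Of 89 rows that matched the symbol pattern, 84 remained after 5 symbols were left out, and 79 held an annotated transcript. Symbols with 2 such rows numbered 2, which gives 77 members. Members and gene lists (14) were chosen with earlier results of these data known. The 12977 rows that reached 1 FPKM in 4 or more libraries were compared as log2(FPKM + 1) by limma (version 3.58.1, R 4.3.3, eBayes trend), two-sided, with Benjamini-Hochberg adjustment and a threshold of 0.05. Fold changes are on that scale and understate those of low genes. The fit was repeated after median-of-ratios rescaling. Medians and counts of members describe those tested, and the filter can keep a member through its high group only.

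Named members were those called, those of the stress-inducible list, and in each role the 3 of highest mean and the 3 of lowest p. Of other lists they were those called, or else the 2 of lowest p in each direction. Other names were added after their values were seen. On simulated data for this comparison, 68% of rows changed by a log2 difference of 1 and 88% of those changed by 2 were recovered among 12977 rows. Of 162 calls, 6 were false. The noise had the spread of each row, without the shift between groups or the library factors of the real data. The rates are averages over randomly chosen rows and are not those of the stress-inducible members, which varied more. Alternatives covered the pseudocount, filters, scaling, the trend, the replicate number as a block, row choice and each library left out. Summing near-identical copies was chosen after seeing the data. Promoter windows came from RefSeq (GRCr8). Protein sequences were not used here. Plots were made in Python 3.11.15 (matplotlib 3.10.9).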

Additional observations from a re-analysis of the deposited data

Results flagged for a closer look

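Of 72 groups of 4 libraries (the 37 named members, less groups at 0), 8 had 1 library far from the other 3 by Dixon's criterion. Its nominal rate of about 1 group in 20 is for independent, normally distributed values. FPKM of genes from the same libraries are not independent, so the 8 cannot be weighed against that rate. The flag of Hspa1b rests on 3 values listed at 0, which can be failed estimates. Above their group stood Hspb1 in control replicate 1 at 268.3 FPKM (others 54.3 to 86.9), Hspa1b in control replicate 1 at 221.4 FPKM (others listed at 0) and Hspb8 in control replicate 2 at 3.489 FPKM (others 0.606 to 1.01). In the nitroglycerin group, Dnaja1 stood at 31.76 FPKM in replicate 2 (others 9.30 to 12.9), Dnajb1 at 14.3 FPKM in replicate 1 (others 2.75 to 3.58) and Bag3 at 8.922 FPKM in replicate 1 (others 3.53 to 3.90). Below their group stood Dnaja3 in control replicate 1 at 3.749 FPKM (others 4.88 to 5.10) and Dnajc15 in control replicate 3 at 1.947 FPKM (others 2.20 to 2.25). The cause of these values was not tested.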

How the results depend on the processing

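The count of members called as deposited was 0, also with a pseudocount of 0.1, without any filter, without the trend and with summed rows. It was 1 with rows of a mean of at least 5 FPKM (Dnajc7, limma adjusted p = 0.0481), 3 with annotated rows only (Dnajb6, Dnajc7 and Hspa14, adjusted p = 0.0481, 0.044 and 0.0499), 1 after quantile normalization (Hspb6, adjusted p = 0.0406) and 1 after rescaling (Hspb6). With 1 library left out it was 0 to 1. After rescaling the count was 1, and 0 to 1 with 1 library left out. The 3 calls among other genes of the network became 0 after rescaling. Over all rows, 175 were called as deposited, 7 at the pseudocount 0.1, 26 without any filter, 222 at a mean of 5 FPKM, 828 with annotated rows only, 41 without the trend, 15 after quantile normalization and 5 to 284 with 1 library left out, while 17 were called after rescaling and 1 to 31 with 1 library left out. The labels do not say that the replicate numbers pair the libraries. As deposited, correlations of same-numbered deviations were 0.133, -0.011, -0.012 and 0.121, and those of different numbers ran from -0.176 to 0.087. These values do not settle whether the numbers pair libraries. With the replicate block, 0 members were called as deposited and 0 after rescaling (Hspb6, adjusted p = 0.193), and 0 of all rows.

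Of the 60 tested members, 24 read higher as deposited and lower after rescaling, and 0 turned the other way. None of them was called under either scaling. For the 13 among the members named by the rule, the log2 difference after rescaling was -0.21 for Bag2, -0.062 for Bag6, -0.0040 for Cct2, -0.072 for Cct4, -0.032 for Cct5, -0.28 for Dnajb1, -0.062 for Dnajb4, -0.16 for Dnajc5, -0.20 for Hsp90ab1, -0.076 for Hspa4, -0.046 for Hspa9, -0.046 for Hspd1 and -0.32 for Hsph1. After quantile normalization it was -0.19 for Bag2, -0.0044 for Bag6, -0.25 for Dnajb1, -0.085 for Dnajc5, -0.00077 for Hsp90ab1 and -0.22 for Hsph1. With 1 library left out, it ran from -0.10 to 0.32 for Bag2, from -0.58 to 0.12 for Dnaja1, from -0.43 to 0.31 for Dnajb1, from -0.82 to 0.017 for Hsp90aa1, from -1.27 to 0.018 for Hspb1 and from -0.50 to 0.37 for Hsph1. The cause of these turns was not tested, beyond the shift of the median row by the scaling. Summing near-identical copies left the log2 difference at -0.25 for Hspa8 and -0.22 for Hsp90aa1. FPKM carries no count, so precision at low levels is unknown.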
